A study of Mus musculus with 6 samples.

Results

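The 9 genes described here are the adult globins and part of the heme pathway of the mouse: Hba-a1, Hba-a2, Hbb-bs and Hbb-bt, which encode the alpha and beta chains of hemoglobin, and Alas2, Alad, Urod, Cpox and Fech, which encode enzymes of heme synthesis. They were taken by gene name from tables of 30733 symbols, each gene had 1 row, and all 9 reached the mean of 1 FPKM (a transcript level per kilobase of length and per library size) that 12037 genes reached and that was required for testing. RNA was sequenced from bone marrow cells labelled as hematopoietic stem cells (HSCs), the cells that give rise to all blood lineages. They came from wild-type mice aged 12 months and had been sorted by surface MHC class II into a low fraction (MHCII-lo, 3 libraries) and a high fraction (MHCII-hi, 3 libraries). No treatment or engineered allele is named for either fraction, and the sources used here do not give the other sort markers, how many animals were used or whether animals were pooled. The comparison asked how the transcripts of MHCII-hi cells differ from those of MHCII-lo cells at this age.

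Hemoglobin is a tetramer of a pair of alpha and a pair of beta chains, each holding 1 heme, and it fills the red cell. Heme is a porphyrin ring with iron at its centre, built in steps shared between mitochondria and cytosol. The first enzyme, aminolevulinate synthase, exists as a housekeeping form (Alas1) and an erythroid form (Alas2), and the last, ferrochelatase (Fech), inserts the iron. Globin and heme genes are switched on strongly when progenitors commit to the red cell lineage, under Gata1 and Klf1, while stem cells and myeloid cells need heme for cytochromes and peroxidases.

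Both globin pairs are nearly identical in sequence, which bears on every value given for a single globin gene. Hba-a1 lies at chr11:32283511-32284465 and Hba-a2 at chr11:32296489-32297298 on the plus strand, and Hbb-bs at chr7:103826534-103828096 and Hbb-bt at chr7:103812524-103813996 on the minus strand (GRCm38, GENCODE annotation). The 429 coding bases of Hba-a1 and Hba-a2 differ at 1 base, number 381 counted from the start codon. The 444 coding bases of Hbb-bs and Hbb-bt also differ at 1 base, number 417. The stretches that hold these bases, all in exon 3 of 3 and entirely coding, are shown 5′ to 3′ on the gene's strand, with the differing base in capitals.
Hba-a1: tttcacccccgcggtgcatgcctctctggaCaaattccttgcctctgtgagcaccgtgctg
Hba-a2: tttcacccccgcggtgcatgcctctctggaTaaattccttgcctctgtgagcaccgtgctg
Hbb-bs: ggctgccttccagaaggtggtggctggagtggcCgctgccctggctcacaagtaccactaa
Hbb-bt: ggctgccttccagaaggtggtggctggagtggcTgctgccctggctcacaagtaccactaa
The stretches span coding bases 351 to 411 of the alpha genes (chr11:32284313-32284373 and chr11:32297130-32297190) and 384 to 444 of the beta genes (chr7:103826665-103826725 and chr7:103812656-103812716). Of the 100-base windows of a transcript, 56.5% of those of Hba-a1 also occurred in Hba-a2 and 74.5% of those of Hba-a2 in Hba-a1. For the beta pair these shares were 62.6% of Hbb-bs and 54.8% of Hbb-bt. Reads from such windows could be split between the copies by the quantification, so the level of each single globin gene is uncertain, and the sum of a pair is less exposed.

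Upstream sequence from RefSeq (GRCm38.p6) was found for 8 of the 9 genes, and 130 bases before each RefSeq start were searched for 4 words known from globin and erythroid promoters, on both strands. The alpha pair shared a run of 127 bases in this window, while the longest run shared by Hbb-bs and Hbb-bt was 14 bases, so the beta genes differ far more upstream than in their coding sequence. All 4 globins held TATAA, a word of the TATA box, which 12.7% of 32851 promoters held in a window of this length. CACCC, the core of the word bound by Klf1, was found in 7 of 8 genes (33.7% of promoters), and CCAAT in 5 of 8 (22.4%). Alad held CACCC and CCAAT before different RefSeq starts and counts for both words, while the shares are of single promoters. A GATA word (AGATAA or TGATAA, in 8.3% of promoters) was found in Alas2 and Cpox alone among the 8, in both 86 bases before the RefSeq start. No match overlapped a match to another word in the stretches printed. A match describes the sequence and says nothing about binding. The stretches upstream of the first start in either annotation are given for Hba-a2 and Hbb-bt, as 1 gene of each globin pair, and for Alas2 and Cpox, which share the GATA word, with matches to the words in capitals. Matches between that first start and the RefSeq start, such as TATAA of Hbb-bt and CACCC of Alas2, were counted but are not printed.
Hba-a2: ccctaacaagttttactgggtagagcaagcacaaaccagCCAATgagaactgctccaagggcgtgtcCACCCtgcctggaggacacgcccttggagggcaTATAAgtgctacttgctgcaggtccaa
Hbb-bt: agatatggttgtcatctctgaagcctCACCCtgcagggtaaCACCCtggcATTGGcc
Alas2: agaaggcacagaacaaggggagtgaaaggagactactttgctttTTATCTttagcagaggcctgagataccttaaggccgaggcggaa
Cpox: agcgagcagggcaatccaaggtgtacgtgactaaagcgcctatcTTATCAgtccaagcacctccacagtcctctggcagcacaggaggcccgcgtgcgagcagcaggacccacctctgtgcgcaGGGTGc
These lie at chr11:32296362-32296488 (plus strand), chr7:103813997-103814053 (minus strand), chrX:150547287-150547374 (plus strand) and chr16:58670078-58670207 (plus strand). Words on the opposite strand appear as their complement, such as TTATCT for AGATAA.

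The libraries of a fraction were close to each other. Log2 values of 2 libraries correlated at 0.991 to 0.993 inside a fraction and at 0.945 to 0.947 across fractions. Libraries summed to between 327364 and 327945 FPKM in the low fraction and between 344421 and 346651 in the high one, and the number of reads behind a value is unknown. Of 15 stem cell markers, 7 were at or under 1 FPKM in every library, among them Procr (0.11 to 0.79 FPKM), Slamf1, Mecom, Fgd5 and Hoxb5, while Kit (13.7 to 14.5 FPKM) and Ly6a (9.15 to 11.7 FPKM) were present in all 6. Neutrophil markers made up 2.90 to 2.93% of the FPKM of each MHCII-lo library and 16.4 to 16.5% of each MHCII-hi library, and all 22 were higher in MHCII-hi. Of 12 B cell markers 8 were at or under 1 FPKM in every library, and 1 of the 2 tested was higher. Of 7 tested plasma cell markers 4 were higher, and of 8 tested stem cell markers 3 were higher and 3 lower. The shares over all tested genes were 20.4% higher and 40.6% lower. FPKM are relative to the whole library, so a few very abundant transcripts that rise can lower the values of the rest. Whether this happened here was not tested. The median log2 fold change over all tested genes was −0.12 (−0.003 with the neutrophil markers left out of the total), and changes are therefore also given relative to that median.

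Globin and heme synthesis transcripts were lower in MHCII-hi in 8 of the 9 genes (limma, adjusted p under 0.05), and no member had a positive fold change. Of all tested genes 40.6% were called lower and 20.4% higher. The 3 MHCII-hi libraries lay wholly below the 3 MHCII-lo libraries for the same 8 members, against 45.0% of tested genes. The median log2 fold change of the 9 was −0.43, or −0.31 relative to the median gene. Under 4 other scalings 7 members were lower, Fech being the one that lost its call. The split of all genes moved more: 4883 lower and 2450 higher as deposited became 3285 and 3254 with median-ratio scaling, 3017 and 3469 without the neutrophil markers in the total, and 3687 and 2989 with median centring.

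**Figure D1:**
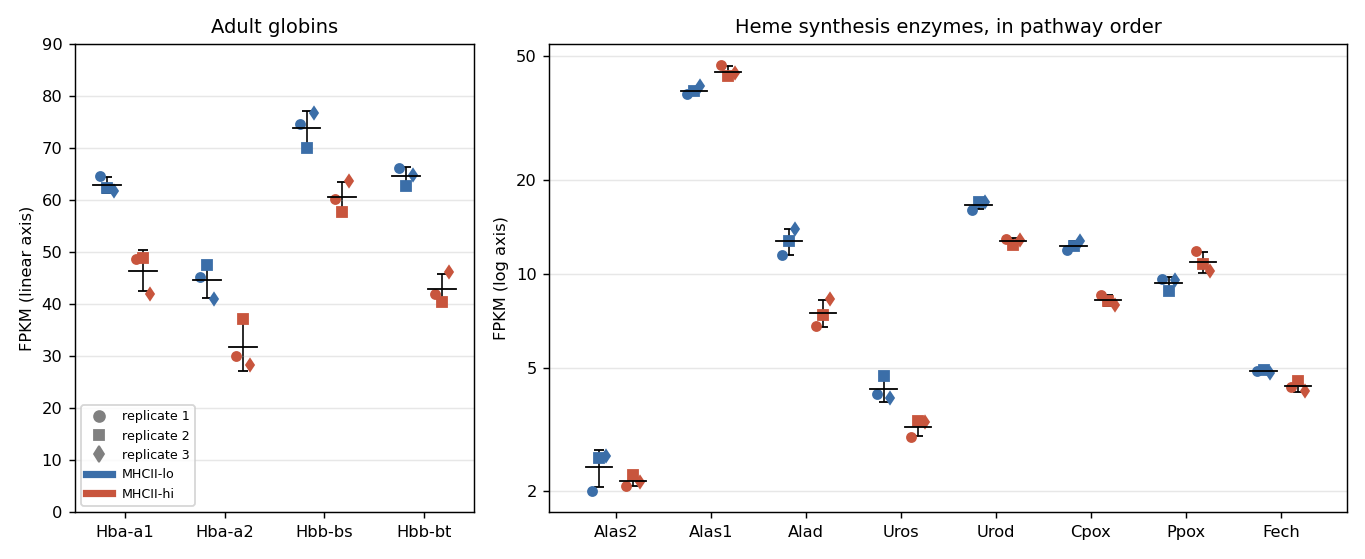
FPKM of the 4 adult globins (left, linear axis) and of 8 heme synthesis enzymes in pathway order (right, log axis) in each of the 6 libraries; points are libraries, marker shapes replicate numbers, horizontal lines group means and error bars SD (n = 3). The MHCII-hi points lie below the MHCII-lo points for the 4 globins and for Alad, Uros, Urod, Cpox and Fech, above them for Alas1 and Ppox, and among them for Alas2.

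All 4 adult globins were lower in MHCII-hi, by ratios of 1.22 to 1.51. Hba-a1, 1 of the copies of the alpha chain gene, was at 64.5, 62.3 and 61.7 FPKM in MHCII-lo and at 48.7, 48.8 and 41.8 FPKM in MHCII-hi. Hba-a2, the other copy, was at 45.1, 47.6 and 40.9 FPKM in MHCII-lo and at 29.9, 37.01 and 28.2 FPKM in MHCII-hi. The fractions did not overlap for either alpha gene, with MHCII-hi replicate 2 the closest to the low fraction for Hba-a2. Their log2 fold changes on the log2(FPKM + 1) scale were −0.43 (SE 0.0606, limma adjusted p 0.000830) for Hba-a1 and −0.48 (SE 0.103, limma adjusted p 0.00591) for Hba-a2. Relative to the median gene these came to −0.31 and −0.36.

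Hbb-bt, an adult beta chain gene, changed most among the globins. It was at 66.2, 62.6 and 64.9 FPKM in MHCII-lo and at 41.9, 40.3 and 46.2 FPKM in MHCII-hi, a wide gap with every MHCII-hi library lower (log2 fold change −0.58, SE 0.0516, limma adjusted p 8.67e-05). Hbb-bs, the other beta gene and the most abundant member in both fractions, changed least among the globins. It was at 74.6, 70.1 and 76.7 FPKM in MHCII-lo and at 60.15, 57.8 and 63.7 FPKM in MHCII-hi (log2 fold change −0.28, SE 0.0468, limma adjusted p 0.00190). Its fractions were apart as well, by the smallest fold of the 4. Relative to the median gene Hbb-bt was at −0.46 and Hbb-bs at −0.16. With the neutrophil markers left out of the total the 4 globins stayed lower, with log2 fold changes of −0.29 for Hba-a1, −0.35 for Hba-a2, −0.14 for Hbb-bs and −0.45 for Hbb-bt.

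The summed level of the 4 globins was 242.57 to 250.41 FPKM in MHCII-lo and 179.98 to 183.88 FPKM in MHCII-hi. They made up 0.0764, 0.0741 and 0.0745% of a library's summed FPKM in MHCII-lo and 0.0521, 0.0534 and 0.0522% in MHCII-hi. The shares did not overlap, and their difference was −0.0224 percentage points (two-sided exact permutation test, p = 0.1, the smallest that 3 against 3 libraries allow; 0.133 adjusted over 8 measures of this kind). With the neutrophil markers left out of the sum the difference was −0.0143 points, with the same p in the exact test. In bulk RNA, fewer cells of a type and less RNA per cell cannot be told apart. Of 7 embryonic and theta globins looked for, 3 were matched in the tables, and none of these reached 1 FPKM. Hbb-y, an embryonic beta-like globin, was listed at 0 in all 6 libraries, and the theta globins Hbq1a and Hbq1b reached at most 0.14 and 0.62 FPKM.

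The balance of alpha to beta chains did not part the fractions. The ratio of summed alpha to summed beta FPKM was 0.779, 0.828 and 0.724 in MHCII-lo and 0.771, 0.875 and 0.637 in MHCII-hi, and the MHCII-lo values all fell within the MHCII-hi range. The difference in mean log2 ratio was −0.04 (two-sided exact permutation test, p = 0.8), and its sign depended on single libraries: it was 0.08 without MHCII-hi replicate 3, 0.01 without MHCII-lo replicate 2 and −0.15 without MHCII-hi replicate 2. Within the beta pair the ratio of Hbb-bs to Hbb-bt, chosen after the values were seen, was 1.13, 1.12 and 1.18 in MHCII-lo and 1.44, 1.43 and 1.38 in MHCII-hi. These groups were apart by 0.31 on the log2 scale (exact permutation p = 0.1, the smallest possible; 0.133 adjusted over the 8 measures). The matching ratio of Hba-a1 to Hba-a2 overlapped, with 1.31 to 1.51 in the low and 1.32 to 1.63 in the high fraction (exact permutation p = 0.7).

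**Figure D2:**
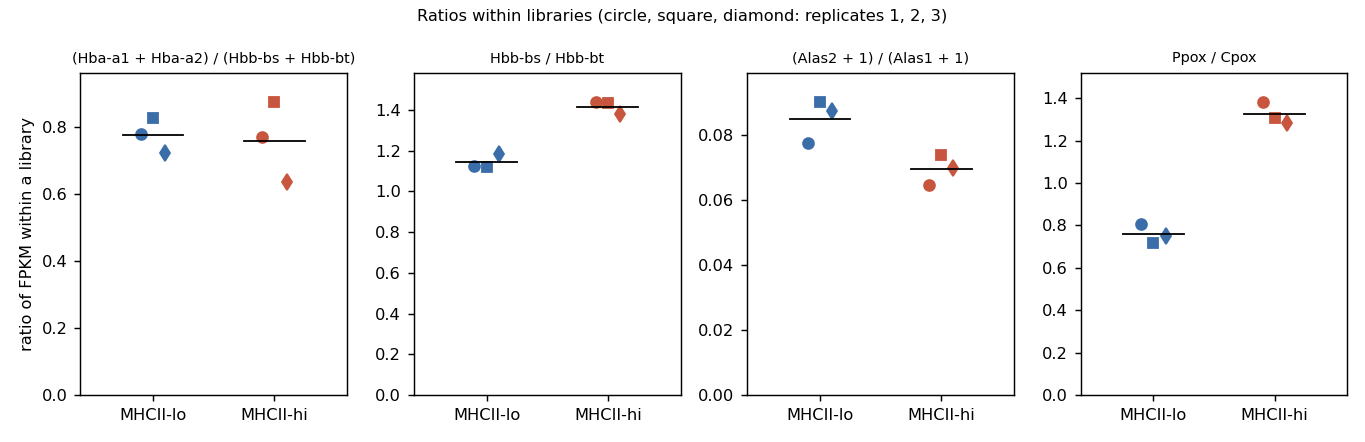
Ratios of FPKM within each library (y axis, no unit, from 0) for MHCII-lo and MHCII-hi; points are libraries and lines group means (n = 3). Alpha to beta overlaps between the fractions, whereas Hbb-bs to Hbb-bt and Ppox to Cpox are higher, and Alas2 to Alas1 lower, in all 3 MHCII-hi libraries.

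Of the 8 heme synthesis enzymes reported, 5 were lower in MHCII-hi, 2 were higher and 1 was not called. Among all tested genes 40.6% were lower and 20.4% higher. The median log2 fold change of the 8 was −0.22, or −0.10 relative to the median gene. Under each of the 4 other scalings 4 of the 8 were lower and 2 higher. Across those scalings 3017 to 4022 of all 12037 tested genes were lower and 2817 to 3469 higher. Alas2, the erythroid enzyme of the first step (chrX:150547375-150570638, plus strand), was the lowest of the 8 enzymes in both fractions. It was at 2.01, 2.56 and 2.59 FPKM in MHCII-lo and at 2.08, 2.25 and 2.15 FPKM in MHCII-hi. The 3 MHCII-hi values lay within the MHCII-lo range, and the log2 fold change of −0.10 had a 95% interval of −0.30 to 0.11 (limma adjusted p 0.362). Its sign turned with the neutrophil markers left out of the total (0.00, adjusted p 0.986). The interval leaves room for changes of either direction, and at this level values sit close to the pseudocount of 1. Apex2, on the opposite strand, overlaps 12.9% of the exonic bases of Alas2, was at 1.07 ± 0.0173 FPKM in MHCII-lo and 0.873 ± 0.0321 FPKM in MHCII-hi (SD, n = 3), and no source says if strand entered the quantification.

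Alas1, the housekeeping enzyme of the same step and not among the 9 members, went the other way. It was at 37.8, 38.6 and 40.1 FPKM in MHCII-lo and at 46.8, 43.1 and 44.1 FPKM in MHCII-hi, with every MHCII-hi library above every MHCII-lo library (log2 fold change 0.20, SE 0.0390, limma adjusted p 0.00416). Of all tested genes 22.6% had the 3 MHCII-hi libraries wholly above. In MHCII-hi its level fell within the range of the single globins, between Hba-a1 and Hbb-bt by mean, and those neighbours overlapped. The ratio of Alas2 to Alas1, each with 1 FPKM added, was 0.0775, 0.0899 and 0.0874 in MHCII-lo and 0.0644, 0.0737 and 0.0698 in MHCII-hi. The ratio was lower in all 3 MHCII-hi libraries, by a mean of −0.29 on the log2 scale (exact permutation p = 0.1, the smallest possible; 0.133 adjusted over the 8 measures).

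Alad and Uros, cytosolic enzymes that act before the ring is trimmed, were lower in MHCII-hi. Alad (chr4:62509169-62519918, minus strand), which joins aminolevulinate into porphobilinogen, had the largest change of the members. It was at 11.5, 12.7 and 13.9 FPKM in MHCII-lo and at 6.82, 7.36 and 8.32 FPKM in MHCII-hi, a ratio of 1.69 with no overlap (log2 fold change −0.69, SE 0.0859, limma adjusted p 0.000467). Uros, which closes the ring, went from 4.26 ± 0.380 to 3.23 ± 0.209 FPKM (log2 fold change −0.31, limma adjusted p 0.00760). For both genes the 3 MHCII-hi libraries lay below the 3 MHCII-lo libraries.

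Urod and Cpox, the enzymes that trim the side chains of the ring, were lower too, with small spread between libraries. Urod (chr4:116989965-116994413, minus strand), a decarboxylase, was at 16.01, 17.04 and 17.03 FPKM in MHCII-lo and at 12.95, 12.4 and 12.8 FPKM in MHCII-hi (log2 fold change −0.37, SE 0.0381, limma adjusted p 0.000193). Cpox (chr16:58670292-58717636, plus strand), an oxidase of the mitochondrial intermembrane space, was at 11.9, 12.3 and 12.7 FPKM in MHCII-lo and at 8.56, 8.20 and 7.92 FPKM in MHCII-hi (log2 fold change −0.53, SE 0.0432, limma adjusted p 5.90e-05). Every MHCII-hi library was below every MHCII-lo library for both genes. Alas2, which holds the GATA word at the same distance from its RefSeq start as Cpox, was not called. The GENCODE starts of both genes lie elsewhere, so the distances from those are not equal. The difference between these genes was not tested. Gpr15, on the opposite strand, overlaps 3.06% of the exonic bases of Cpox and was at 1.09 ± 0.135 and 0.68 ± 0.14 FPKM.

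As deposited, the last 2 steps gave the weakest calls. Ppox, which oxidizes the ring to protoporphyrin and is not among the 9 members, was at 9.60, 8.82 and 9.54 FPKM in MHCII-lo and at 11.8, 10.7 and 10.2 FPKM in MHCII-hi. All MHCII-hi libraries were higher (log2 fold change 0.21, SE 0.0607, limma adjusted p 0.0228). The call was lost without MHCII-lo replicate 2 (0.0709), without MHCII-hi replicate 1 (0.0547) and with no filter on low values (0.0534). It held under the 4 other scalings (limma adjusted p 0.00293 to 0.0102). B4galt3, whose exons on the opposite strand overlap 17.5% of the exonic bases of Ppox, went from 5.32 ± 0.429 to 8.52 ± 0.442 FPKM. The ratio of Ppox to B4galt3, chosen after the values were seen, was 1.98, 1.55 and 1.76 in MHCII-lo and 1.31, 1.28 and 1.24 in MHCII-hi, lower in all 3 MHCII-hi libraries by −0.46 on the log2 scale (exact permutation p = 0.1, the smallest possible; 0.133 adjusted over the 8 measures). Whether reads of B4galt3 entered the Ppox values was not tested. Fech (chr18:64452914-64490251, minus strand), which inserts iron, was at 4.88, 4.92 and 4.80 FPKM in MHCII-lo and at 4.33, 4.52 and 4.19 FPKM in MHCII-hi. The fractions did not overlap, but the change was small (log2 fold change −0.13, 95% interval −0.24 to −0.03, limma adjusted p 0.0370), and relative to the median gene it was −0.01. The call was lost in 11 of 15 alternatives, among them all 4 other scalings (adjusted p 0.253 to 0.758) and the omission of any 1 library other than MHCII-hi replicate 2 (0.0691 to 0.109).

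**Figure D3:**
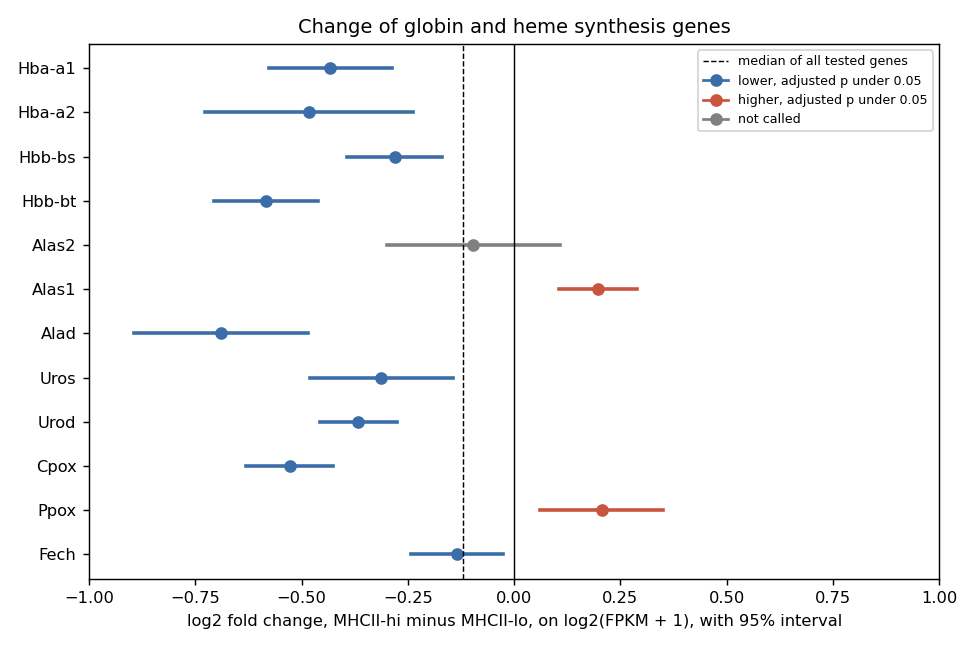
Changes in log2(FPKM + 1) from MHCII-lo to MHCII-hi (x axis) of the globins and of the heme synthesis enzymes in pathway order, with 95% intervals from limma (n = 3 per group). The dashed line marks the median of all tested genes at −0.12; Fech and Alas2 lie near it, and Alas1 and Ppox lie above 0.

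The ratio of Ppox to Cpox, successive enzymes of the pathway chosen after the values were seen, does not depend on how a library is scaled. It was 0.807, 0.718 and 0.75 in MHCII-lo and 1.38, 1.31 and 1.29 in MHCII-hi. Cpox was thus the higher of the pair in every MHCII-lo library and Ppox in every MHCII-hi library, a 1.75-fold change of the ratio (exact permutation p = 0.1, the smallest possible; 0.133 adjusted over the 8 measures). In MHCII-lo the order of levels per length was Hbb-bs, Hbb-bt, Hba-a1, Hba-a2, Alas1, Urod, Alad, Cpox, Ppox, Fech, Uros and Alas2, where Hbb-bt overlapped Hba-a1 and Alad overlapped Cpox. In MHCII-hi Ppox stood above Cpox and Alad, which overlapped each other.

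**Figure D4:**
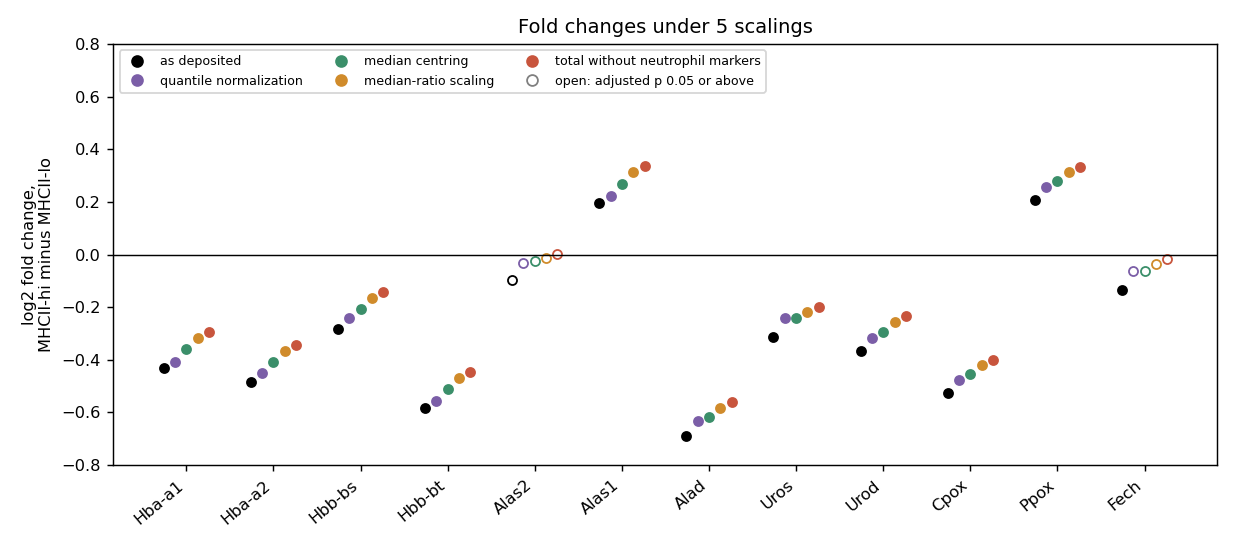
Log2 fold change, MHCII-hi minus MHCII-lo (y axis), of the 12 genes under 5 scalings of the libraries; filled points passed the limma test at an adjusted p under 0.05 and open points did not. The 4 globins, Alad, Uros, Urod and Cpox are filled below 0 and Alas1 and Ppox filled above 0 under all 5, Fech is filled as deposited only, and Alas2 is open throughout.

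Of 15 tested genes that serve the pathway by transport and assembly, 9 were lower and 2 higher, against 40.6% and 20.4% of all tested genes, with a median of −0.17 against −0.12. Under other scalings 6 or 7 stayed lower, and Abcb8 and Clpx lost their calls under all 4. All tested genes called lower then numbered 3017 to 4022 of 12037. Slc25a39, a mitochondrial carrier needed for heme synthesis in red cells, fell from 18.9 ± 0.211 to 12.1 ± 0.358 FPKM (log2 fold change −0.61, limma adjusted p 8.94e-06). Tmem14c, which moves porphyrin precursors into the mitochondrial matrix, fell from 99.4 ± 4.34 to 71.7 ± 3.88 FPKM (log2 fold change −0.47). Glrx5, a factor of iron-sulfur cluster assembly, fell from 8.74 ± 0.0777 to 6.16 ± 0.456 FPKM (log2 fold change −0.45). Slc25a37, mitoferrin, which imports iron into mitochondria, rose instead, from 14.997 ± 0.817 to 22.1 ± 0.395 FPKM (log2 fold change 0.53, limma adjusted p 6.04e-05). Abcb6, also placed in porphyrin transport, was not called (2.30 ± 0.710 to 2.43 ± 0.0794 FPKM).

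Of 8 tested genes of heme export, uptake and breakdown, 3 were lower, 2 higher and 3 not called, which is near the shares of all tested genes (40.6% lower and 20.4% higher), and the median of −0.03 turned to 0.09 with median-ratio scaling. Hmox1, the inducible heme oxygenase that opens the ring, rose from 9.99 ± 1.02 to 16.9 ± 1.11 FPKM (log2 fold change 0.70, limma adjusted p 0.000267). Blvrb, a biliverdin reductase abundant in red cells, fell from 9.86 ± 0.330 to 4.34 ± 0.137 FPKM (log2 fold change −1.02, limma adjusted p 2.27e-06), a larger change than that of any of the 9 members. Hebp1, a heme-binding protein, fell from 4.65 ± 0.232 to 2.49 ± 0.245 FPKM, and Abcg2, a porphyrin exporter, from 2.57 ± 0.274 to 1.70 ± 0.110 FPKM. Flvcr1, a plasma membrane transporter linked to heme export, rose with a log2 fold change of 0.21 (adjusted p 0.0168, and 0.0548 without MHCII-hi replicate 3).

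Of 4 tested genes from a list of globin chaperones, heme sensors and related factors, 3 were higher and 1 was not called. Their median was 0.23, and 20.4% of all tested genes were higher. The alpha chain chaperone Ahsp was not matched. Nfe2, a transcription factor of the red cell and platelet lineages, rose from 29.8 ± 0.967 to 49.5 ± 1.16 FPKM (log2 fold change 0.71, limma adjusted p 3.52e-06). Bach1, a repressor released by heme, rose from 11.1 ± 0.341 to 14.02 ± 0.314 FPKM (log2 fold change 0.31). Nfe2l2, an activator of Hmox1, had a log2 fold change of 0.15 (limma adjusted p 0.0374), a call lost without MHCII-hi replicate 1 (0.110), MHCII-hi replicate 2 (0.0796) or MHCII-lo replicate 3 (0.0892). Eif2ak1, the heme-regulated kinase that limits globin translation, was at 18.2 ± 0.535 and 17.7 ± 0.570 FPKM (limma adjusted p 0.393), and its sign turned under the 4 other scalings.

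Of 5 heme-binding enzymes of myeloid cells tested, 3 were lower and 2 higher, against 40.6% and 20.4% of all tested genes. Mpo, the myeloperoxidase of granules, fell from 2044 ± 22.95 to 1566 ± 5.95 FPKM (log2 fold change −0.38), and Epx, the eosinophil peroxidase, from 293 ± 6.06 to 108 ± 0.218 FPKM (log2 fold change −1.43, limma adjusted p 1.70e-08). The cytochrome b subunits of the phagocyte oxidase rose: Cybb from 99.9 ± 0.220 to 165 ± 2.29 FPKM and Cyba from 145 ± 4.32 to 197 ± 5.74 FPKM. The 22 neutrophil markers were higher in the same libraries, and their part in these values was not tested.

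**Figure D5:**
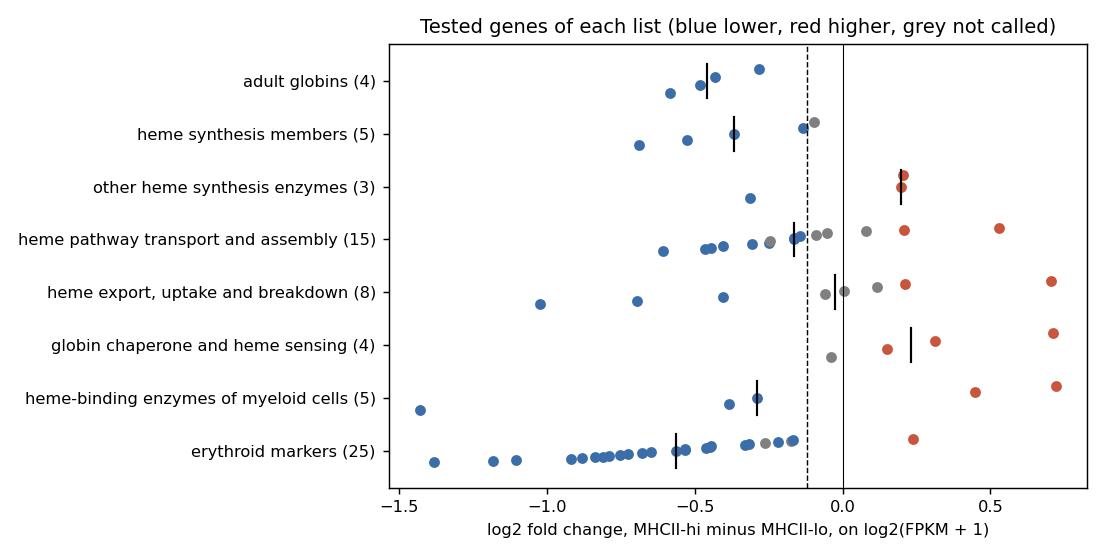
Change in log2(FPKM + 1) from MHCII-lo to MHCII-hi (x axis) of each tested gene in 8 gene lists, with the number tested in brackets; short black bars are list medians and the dashed line is the median of all tested genes. Globins and erythroid markers lie mostly below the dashed line, while the 5 lists from other heme synthesis enzymes to heme-binding enzymes hold genes on both sides of 0.

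Markers of the red cell lineage were lower in the same libraries as the globins. Of 25 tested erythroid markers 22 were lower, 1 higher and 2 not called, against 40.6% lower and 20.4% higher among all tested genes. Their median was −0.56 (−0.44 relative to the median gene), and 20 were lower under each of the 4 other scalings. Across those scalings 3017 to 4022 of all 12037 tested genes were lower. None of the 27 was at or under 1 FPKM in all libraries. Car2, a carbonic anhydrase, fell from 109.9 ± 0.592 to 47.9 ± 1.98 FPKM (log2 fold change −1.18, limma adjusted p 3.13e-07) and Car1 from 152 ± 1.90 to 86.5 ± 4.18 FPKM (−0.81). Rhd, a red cell membrane protein, fell from 12.03 ± 0.248 to 4.02 ± 0.528 FPKM (−1.38) and Klf1, the activator of adult beta globin, from 10.1 ± 0.674 to 4.17 ± 0.294 FPKM (−1.10). Xk, a membrane protein of red cells chosen after its value was seen, was the 1 marker that rose (3.18 ± 0.201 to 3.92 ± 0.186 FPKM).

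Summed erythroid markers differed between the fractions by a larger ratio than summed globins. Their level was 420.07 to 428.5 FPKM in MHCII-lo and 229.34 to 239.01 FPKM in MHCII-hi, of which Car1 and Car2 were the larger part. The ratio of summed globins to summed erythroid markers, chosen after the values were seen, was 0.584, 0.577 and 0.572 in MHCII-lo and 0.788, 0.769 and 0.774 in MHCII-hi. It was higher in all 3 MHCII-hi libraries, by 0.43 on the log2 scale (two-sided exact permutation test, p = 0.1, the smallest possible; 0.133 adjusted over the 8 measures). The part of these markers in the lower globin and heme levels was not tested.

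Genes with the profiles closest to Hbb-bs and Alas2 over the 6 libraries were found by the root mean square difference of log2(FPKM + 1), each centred on its own mean. For Hbb-bs these were Lmo2 (0.0125), Timm50 (0.0142), Kat14 (0.0208), Ifi35 (0.0242) and Hlcs (0.0249). Lmo2 is a partner of Gata1 and Tal1 in blood progenitors, and it went from 60.1 to 49.5 FPKM. For Alas2 the closest were Bahd1 (0.0143), Fanci (0.0219), Ccdc93 (0.0239), Dpy19l4 (0.0299) and Ptprv (0.0310), none of which passed the limma test. The 5 genes near Hbb-bs were all lower in MHCII-hi, as its own profile requires.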

How the data were processed

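RNA was sequenced from 6 libraries, 3 of MHCII-lo and 3 of MHCII-hi cells, grouped by the labels. Per the labels' protocols, a stranded mRNA kit was used. The submitters' processing notes name fastp, HISAT2, StringTie and GRCm38 (mm10). The authors deposited 1 table per library with 30803 rows. The unit of the deposited values is not named and was inferred to be FPKM, from StringTie, the 2 decimals and sums that differ between libraries. FPKM carry no depth, so depth and counting error are unknown. The labels do not say that each library came from its own animal, so the p-values reflect no more than library-to-library spread, which could be technical.

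For 70 repeated symbols the row with the highest mean was kept. Values were taken as log2(FPKM + 1), which understates changes of low genes. Genes averaging 1 FPKM or more over the 6 libraries were compared with limma 3.58.1 (R 4.3.3), an intensity trend and group as the only term, with Benjamini-Hochberg adjustment over all of them at 0.05. The fit was tested on simulated data with far fewer changed genes than were called here and no shift of whole libraries, so that test does not cover such a shift. Ratios and shares were compared with two-sided exact permutation tests (Python 3.11.15, scipy 1.17.1). Same-numbered libraries did not deviate together (correlations −0.053 to −0.043), so no replicate block was used. The 9 members and the 14 gene lists (141 entries, 8 not matched) were chosen with earlier results of these data known. Named were the members, 3 other enzymes, up to 4 genes with the smallest p of each heme list and of the erythroid markers, and the 5 closest profiles. Any other gene of a heme list could be named, and Flvcr1, Abcb6, Abcb8 and Clpx were, after their values were seen. A further gene of the pathway is not reported here. Other marker lists are given by counts and levels. Alternatives were other pseudocounts, filters and scalings, no trend, a replicate block and leaving out each library. Median centring was added after seeing the data.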

Additional observations from a re-analysis of the deposited data

How the results depend on the processing

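The calls of Hba-a1, Hba-a2, Hbb-bs, Hbb-bt, Alad, Urod, Cpox and Alas1 held in all 16 alternatives, and that of Uros in the 15 that gave it a value. The call of Uros held narrowly with the neutrophil markers left out of the total (limma adjusted p 0.0498). Requiring a mean of at least 5 FPKM left Alas2, Fech and Uros untested. Leaving the neutrophil markers out of the total gave 3017 genes lower in place of 4883 and turned Alas2 to 0.00218, and leaving them out of the share gave a globin difference of −0.0143 points. The cause was not tested. Members lower were 7 or 8 and members higher 0 in every alternative. Leaving out 1 library gave 4338 to 4500 genes lower and 2234 to 2266 higher, a globin share difference of −0.0229 to −0.0217 points, an alpha to beta log2 difference of −0.147 to 0.0813, and an Alas2 to Alas1 log2 difference of −0.357 to −0.241. With the replicate number as a block, 4659 genes were lower and 2305 higher, 7 members were lower, Fech was not called (adjusted p 0.0678), no other gene of the 12 changed its call, and the smallest possible exact p was 0.25. The numbers are not known to pair the libraries. With 3 libraries a group and no depth, differences in genes of a few FPKM, such as Alas2, could not be resolved.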
